A study of Oncorhynchus mykiss with 6 samples.

Results

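Ribosome footprints, the short mRNA pieces that translating ribosomes protect from nuclease, were counted per gene in rainbow trout liver, and the genes of the enzymes that hydroxylate and glycosylate collagen are described here. The members are every table entry whose symbol, ignoring case, is plod3, plod1a, P4HA1, P4HA2, p3h1, P3h2, Crtap or colgalt1. The 8 symbols gave 10 entries of 1213 listed genes, because P4HA2 and colgalt1 had 2 entries each, numbered here from the higher to the lower mean level. To be in the table a gene needed an FDR below 0.05 from the authors and group means that differed at least 2-fold, and the symbols were picked with those changes in view. The differences between groups are therefore given for these entries as descriptions, with no test. The entry closest to the limits was P4HA2 entry 2, with an FDR of 0.0342 in the authors' deposited table, and entries outside the limits were not analysed here.

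The 6 libraries form 2 groups of 3. The control group was kept at 18 °C by the source names and the design text, or at 20 °C by the treatment protocol, and the heat stress group was kept at 24 °C for 8 h. The labels name no strain, age or sex, and they leave unsaid if each library is a fish of its own, so the spread between libraries may be partly technical. Levels are in FPKM, footprints per kilobase of gene and per 1000000 footprints of the library, and errors are SD over 3 libraries unless named otherwise. A log2 fold change is log2 of the mean footprints at equal depth plus 0.5 in heat stress minus the same in control, with an SE from the per-library log2 values. A footprint level rises with the mRNA present and with its translation, and in whole liver fewer cells of a type and less RNA per cell cannot be told apart.

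Collagen chains are modified in the endoplasmic reticulum (ER) before they fold into a triple helix. Prolyl 4-hydroxylases act on many prolines, which makes the helix stable at body temperature, and prolyl 3-hydroxylases act on few. Lysyl hydroxylases make hydroxylysine, which forms cross-links and carries sugars, and a galactosyltransferase attaches the first sugar. The hydroxylases use oxygen, iron, 2-oxoglutarate and ascorbate. In mammalian liver, stellate cells are the best known makers of fibrillar collagen.

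With control replicate 1 as 100%, the depths worked out from counts over FPKM were 76.4% and 65.5% in the other control libraries and 41.4% to 82.0% in the heat stress libraries. The listed genes held 362308 to 503370 footprints per control library and 438701 to 863769 per heat stress library. The 10 entries together held 379 to 581 footprints per control library and 2161 to 3852 per heat stress library. All 10 passed the filter on low counts, which the heat stress libraries alone can meet. In control, P4HA1 had 10, 12 and 9 footprints and P3h2 had 17, 6 and 11, so passing does not mean ample control counts. None shared its full set of counts with another entry. Bowtie2 is named in the submitters' processing notes, but the handling of reads that match several gene copies is not given in the sources used here, so entries with 1 symbol could have shared reads.

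All 10 entries were higher in heat stress, and in all 10 the lowest heat stress library lay above the highest control library. Of all listed genes, 75.5% had that pattern, since the table was selected on this difference. The largest difference was that of P4HA1, 26.6-fold, followed by plod3, 14.5-fold, and P4HA2 entry 1, 8.39-fold. The smallest was that of P4HA2 entry 2, 2.88-fold. The other 6 entries lay between 4.58-fold and 6.60-fold. The median log2 fold change over the 10 entries was 2.60, with a range from 1.52 to 4.70, beside 1.69 over all listed genes and 1.98 over the listed genes that were higher in heat stress. A log2 fold change of at least 2 was found in 9 of the 10 entries and in 37.5% of the listed genes. These sizes depend on how the libraries are scaled. When TMM scaling was applied to the listed genes, the median of all listed genes moved to 0.14 and that of the 10 entries to 1.05, and P4HA2 entry 2 then lay at -0.05 with the other 9 above 0.

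**Figure D1:**
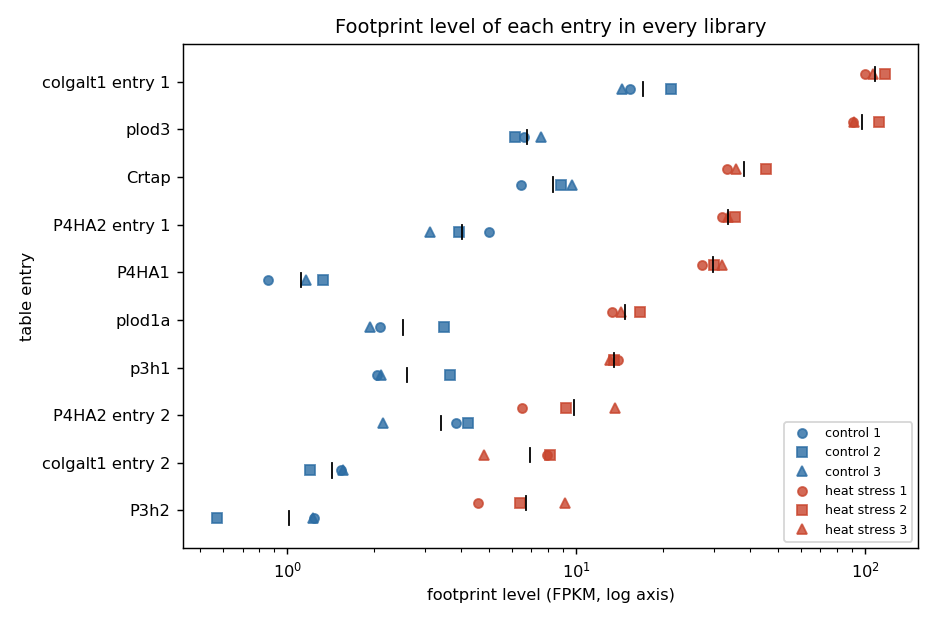
Footprint level of the 10 entries in every library, in FPKM on a log axis, with control libraries in blue and heat stress libraries in red, the marker shape for the replicate and a black line for the group mean. In every entry the 3 heat stress libraries sit above the 3 control libraries, and the gap is widest for P4HA1 and plod3.

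**Figure D2:**
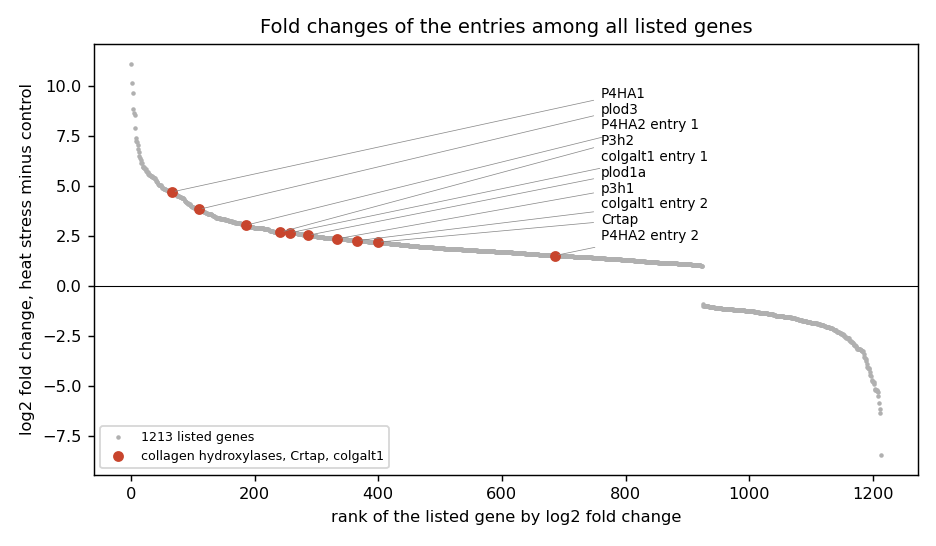
Log2 fold change of the 1213 listed genes, heat stress minus control, against rank, with the 10 entries in red. P4HA1 had rank 66 and P4HA2 entry 2 rank 686, and no listed gene lies near 0 because the table was selected for change.

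The entries plod3 and plod1a code for lysyl hydroxylases. The gene plod3 codes for lysyl hydroxylase 3, which in mammals also transfers glucose onto galactosylated hydroxylysine. It had 6.58, 6.13 and 7.57 FPKM in control replicates 1, 2 and 3 and 90.6, 111 and 91.2 FPKM in heat stress replicates 1, 2 and 3. The control libraries were close together, and heat stress replicate 2 was the highest. The group means were 6.76 ± 0.737 and 97.7 ± 11.8 FPKM, and the log2 fold change was 3.83 ± 0.15 (SE). The gene plod1a, a copy of lysyl hydroxylase 1, which acts on the helical part of collagen in mammals, had 2.10, 3.50 and 1.94 FPKM in control and 13.3, 16.6 and 14.3 FPKM in heat stress. Replicate 2 was the highest library in both groups, which did not overlap. Its means were 2.51 ± 0.858 and 14.7 ± 1.70 FPKM, and its log2 fold change was 2.54 ± 0.28 (SE). Per length, plod3 was 1.75 to 3.90 times plod1a in the control libraries and 6.38 to 6.80 times in the heat stress libraries. These ratio ranges did not overlap. No listed entry had the symbol of the lysyl hydroxylase gene plod2. Of the 1213 listed genes 1165 have a symbol, so such an absence holds for symbols only.

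The galactosyltransferase gene colgalt1, whose enzyme adds galactose to hydroxylysine, had 2 entries of very different level. Entry 1 was the most abundant of the 10 entries in both groups. It had 15.4, 21.3 and 14.4 FPKM in control and 100, 117 and 107 FPKM in heat stress. Control replicate 2 stood above the other control libraries, and all heat stress libraries were several times higher. Its means were 17.0 ± 3.71 and 108 ± 8.56 FPKM, and its log2 fold change was 2.66 ± 0.18 (SE). Entry 2 had 1.53, 1.20 and 1.56 FPKM in control and 7.91, 8.12 and 4.78 FPKM in heat stress. Heat stress replicate 3 was the lowest library of its group here, yet above every control library. This entry had means of 1.43 ± 0.200 and 6.94 ± 1.87 FPKM and a log2 fold change of 2.26 ± 0.27 (SE), and it rests on 45 control footprints. The gene lengths used for the 2 entries, recovered from counts and FPKM, were 0.870 and 0.868 of that of plod3. Entry 1 was 9.22 to 17.7 times entry 2 in control and 12.7 to 22.3 times in heat stress, ranges that overlapped.

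Per length, plod3 was 0.288 to 0.526 of colgalt1 entry 1 in the control libraries and 0.856 to 0.950 in the heat stress libraries. In FPKM the 2 entries did not overlap in control, and their heat stress ranges did. Of the summed FPKM of the 10 entries, plod3 took 14.2% ± 2.85 in control and 27.2% ± 1.31 in heat stress, and colgalt1 entry 1 took 35.0% ± 3.49 and 30.1% ± 0.302.

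Prolyl 4-hydroxylase is a tetramer of catalytic alpha subunits, coded by P4HA genes, and of protein disulfide isomerase as the beta subunit. The gene P4HA1, which codes for the main alpha subunit of most mammalian cells, had 0.860, 1.33 and 1.16 FPKM in control and 27.3, 29.9 and 32.1 FPKM in heat stress. It was among the least abundant entries in control, and every heat stress library was more than 20 times every control library. The means were 1.12 ± 0.238 and 29.8 ± 2.42 FPKM, and the log2 fold change was 4.70 ± 0.20 (SE). The control level rests on 31 footprints over 3 libraries, for which the exact 95% Poisson interval, covering counting error only, runs from 21.1 to 44.0.

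The gene P4HA2 codes for a second alpha subunit, abundant in mammalian cartilage and bone cells. Entry 1 had 4.98, 3.92 and 3.13 FPKM in control and 31.9, 35.4 and 33.7 FPKM in heat stress. The heat stress libraries were close together and far above control. Its means were 4.01 ± 0.928 and 33.7 ± 1.77 FPKM, and its log2 fold change was 3.04 ± 0.19 (SE). Entry 2 had 3.85, 4.23 and 2.14 FPKM in control and 6.49, 9.24 and 13.7 FPKM in heat stress. Its groups came closest to each other of all 10 entries, and heat stress replicate 3 was the highest and replicate 1 the lowest of its group. This entry had means of 3.41 ± 1.11 and 9.80 ± 3.62 FPKM and a log2 fold change of 1.52 ± 0.43 (SE), which was 1.21 without heat stress replicate 3. The lengths used for the 2 entries were 0.771 and 0.761 of that of plod3.

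The order of the prolyl 4-hydroxylase entries differed between the groups. In control, both P4HA2 entries overlapped at the top and P4HA1 lay below them in every library. In heat stress, P4HA1 overlapped P4HA2 entry 1, and both lay above P4HA2 entry 2 in every library. P4HA1 was 0.173 to 0.371 of P4HA2 entry 1 in control and 0.844 to 0.953 in heat stress. P4HA2 entry 1 was 0.927 to 1.46 times entry 2 in control and 2.46 to 4.91 times in heat stress. These ratios compare levels per length within a library, so they do not depend on the scaling between libraries. The symbols of the alpha subunit gene P4HA3 and the beta subunit gene P4HB were not among those of the listed genes.

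**Figure D3:**
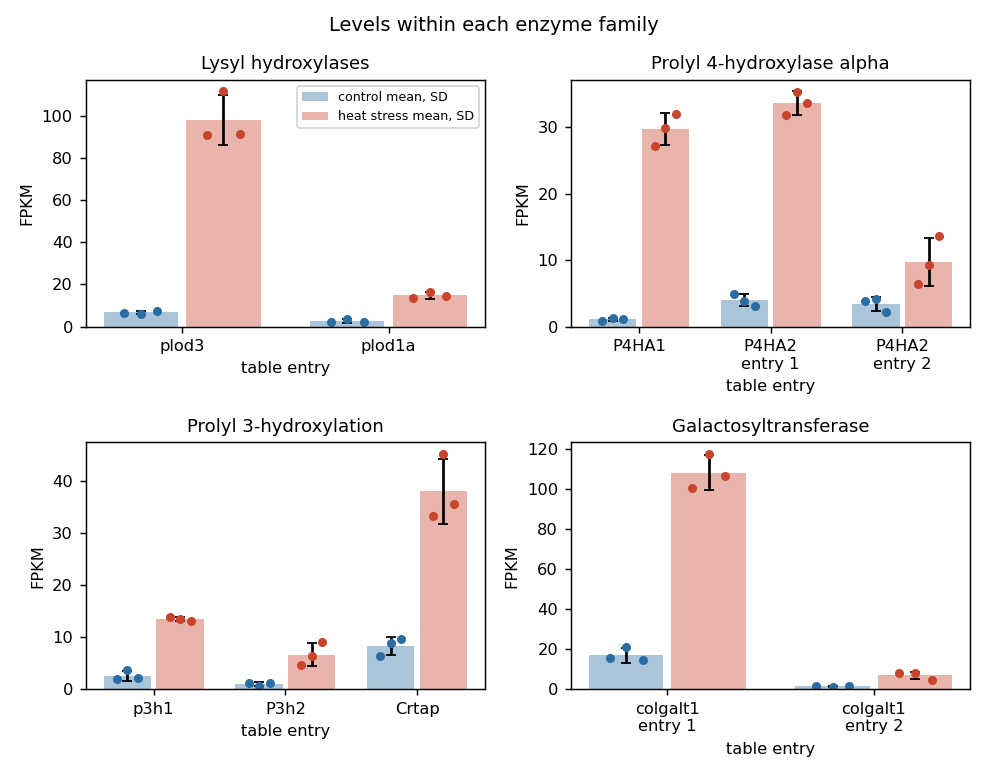
FPKM of the entries within each enzyme family on linear axes, with bars for the group mean, error bars for the SD and points for the 3 libraries of control (blue) and heat stress (red). P4HA1 stands below both P4HA2 entries in control and at 29.8 FPKM, near P4HA2 entry 1 at 33.7 FPKM, in heat stress.

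Prolyl 3-hydroxylase 1, coded by p3h1, works in mammals in a complex with the scaffold protein CRTAP and the prolyl isomerase cyclophilin B. The gene p3h1 had 2.04, 3.65 and 2.11 FPKM in control and 13.9, 13.5 and 13.1 FPKM in heat stress. Control replicate 2 stood apart from the other control libraries, while the heat stress libraries were nearly level. Its means were 2.60 ± 0.910 and 13.5 ± 0.441 FPKM, and its log2 fold change was 2.36 ± 0.28 (SE). Crtap, the scaffold gene, had 6.43, 8.88 and 9.64 FPKM in control and 33.4, 45.2 and 35.7 FPKM in heat stress. The groups lay far apart, with heat stress replicate 2 the highest. Its means were 8.32 ± 1.68 and 38.1 ± 6.28 FPKM, and its log2 fold change was 2.19 ± 0.22 (SE). Per length, Crtap was 2.43 to 4.57 times p3h1 in control and 2.40 to 3.34 times in heat stress, ranges that overlapped. The symbol of the cyclophilin B gene, ppib, was not among those of the listed genes.

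The gene P3h2 codes for prolyl 3-hydroxylase 2, which in mammals acts mainly on collagens of basement membranes. It had 1.24, 0.570 and 1.23 FPKM in control and 4.58, 6.37 and 9.12 FPKM in heat stress. Control replicate 2 was the lowest of all libraries, on 6 footprints, and heat stress replicate 3 was the highest. The means were 1.01 ± 0.384 and 6.69 ± 2.29 FPKM, and the log2 fold change was 2.69 ± 0.45 (SE), the widest SE of the 10 entries. The control level rests on 34 footprints over 3 libraries (exact 95% Poisson interval 23.5 to 47.5, counting error only). The ratio of p3h1 to P3h2 was 1.65 to 6.40 in control and 1.43 to 3.04 in heat stress, and these ranges overlapped.

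By mean FPKM the order in control was colgalt1 entry 1, Crtap, plod3, P4HA2 entry 1, P4HA2 entry 2, p3h1, plod1a, colgalt1 entry 2, P4HA1 and P3h2. Neighbours in this order overlapped between libraries, except colgalt1 entry 1 against Crtap, plod3 against P4HA2 entry 1, and plod1a against colgalt1 entry 2. In heat stress the order was colgalt1 entry 1, plod3, Crtap, P4HA2 entry 1, P4HA1, plod1a, p3h1, P4HA2 entry 2, colgalt1 entry 2 and P3h2. Here neighbours were separate at 2 places, plod3 above Crtap and P4HA1 above plod1a. The summed level of the 10 entries was 45.0, 54.7 and 44.9 FPKM in control and 330, 393 and 354 FPKM in heat stress. P4HA1 took 2.31% ± 0.353 of this sum in control and 8.31% ± 0.727 in heat stress, whereas P4HA2 entry 2 took 7.02% ± 1.99 and 2.73% ± 0.998 and Crtap 17.3% ± 3.72 and 10.6% ± 0.812.

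The libraries within a group did not order the entries evenly. Heat stress replicate 1 was the lowest of its group in 8 of the 10 entries, as it was in 56.8% of all listed genes. Heat stress replicate 2 was the highest in 6 of the 10 entries and in 48.9% of all listed genes. In control, replicate 2 was the highest in 5 of the 10 entries and in 41.4% of all listed genes. P4HA1, P4HA2 entry 2 and P3h2 were highest in heat stress replicate 3, in which colgalt1 entry 2 and p3h1 were lowest.

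Other listed genes of collagen synthesis were taken from lists of procollagen folding and export, collagen chains, and collagen processing and cross-linking. Of 23 such entries, 19 rose and 1 fell by limma-voom at an adjusted p of 0.05. A further 2 missed it and 1 had too few footprints for the fit. These counts include a kdelr2 pair with identical counts and the COL8A2 entries, whose symbol may not name a collagen chain. Of all listed genes in the fit, 87.5% were called and 71.3% were called as higher, so the share says nothing particular about collagen. Each listed gene had already passed the authors' limits on the same 6 libraries. Calls and adjusted p-values, here and below, are therefore descriptions and no independent support. Of these 20 calls 13 held with every library left out in turn, and without control replicate 1 there were 13 calls. Under TMM over the listed genes, 3 were higher, 3 were lower and 7 that had been higher lay below 0, none of these 7 past the test. TMM moved the listed fold changes down as a whole, which favours lower calls.

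Procollagen folding and export held 15 entries, all of which rose, beside 71.3% called as higher among all tested genes. Of these calls 9 held with every library left out in turn. Under TMM 2 of the 15 rose, and 6 lay below 0, none of these 6 past the test. The largest rises were those of the collagen chaperone Hsp47, listed under its symbols hsp47 and SERPINH1. SERPINH1 had 12.2, 12.0 and 7.70 FPKM in control and 343, 368 and 342 FPKM in heat stress, a log2 fold change of 5.05 by limma-voom (adjusted p = 1.64e-06). Both Hsp47 entries kept their calls under TMM. The ER prolyl isomerase gene fkbp9 rose from 12.1 ± 4.04 to 48.6 ± 4.21 FPKM (limma-voom adjusted p = 0.00142). MIA3, whose protein TANGO1 loads procollagen into transport carriers in mammals, rose from 10.3 ± 0.880 to 27.5 ± 4.13 FPKM, and its partner gene MIA2 from 4.19 ± 0.382 to 16.2 ± 2.61 FPKM. MIA3 lay at -0.15 under TMM. The COPII coat genes SEC24A, SEC24C, SEC24D and SEC23A were listed in 6 entries, with log2 fold changes of 1.28 to 1.95 by limma-voom. SEC23A, sec23a and the second SEC24C entry lost their calls with 1 library left out (limma-voom adjusted p up to 0.107). The 2 kdelr2 entries, for an ER retrieval receptor, had identical counts, and their call was also lost with 1 library left out (limma-voom adjusted p up to 0.253). The transcription factor gene creb3l2, which in mammals acts on secretory cargo genes, rose in both entries, from 4.56 to 16.7 FPKM and from 2.08 to 6.56 FPKM, and the second lost its call in the same way (limma-voom adjusted p up to 0.175).

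Of the 4 entries matched as collagen chains, 1 rose, 1 fell, 1 did not pass and 1 had too few footprints for the fit. The type I collagen gene col1a1b had 66.2, 70.4 and 57.4 FPKM in control and 30.0, 29.1 and 26.9 FPKM in heat stress. Every heat stress library lay below every control library, and the limma-voom log2 fold change was -1.17 (adjusted p = 0.00715; -2.73 under TMM). Col18a1, a basement membrane collagen gene, had 1.83 ± 0.574 and 0.553 ± 0.451 FPKM and did not pass (limma-voom adjusted p = 0.13, and up to 0.634 with 1 library left out). It passed under TMM (limma-voom adjusted p = 0.0151), which moves the listed fold changes down, so that pass alone does not show a fall. The highest heat stress library of Col18a1, at 1.04 FPKM, lay below its lowest control library, at 1.17 FPKM. Listed genes were selected on such differences. The 2 entries with the symbol COL8A2 carry a description that begins "compleme", so the symbol may not name a collagen chain. The more abundant of them rose from 75.9 ± 10.9 to 613 ± 319 FPKM (limma-voom adjusted p = 0.00223, and 0.196 under TMM), and the other had 4 control footprints and was not tested.

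Of the extracellular genes, both entries of TIMP2, an inhibitor of matrix metalloproteinases, rose. Timp2 went from 24.7 ± 3.94 to 245 ± 57.2 FPKM, and TIMP2 from 69.2 ± 15.1 to 377 ± 177 FPKM. Timp2 kept its call under TMM (limma-voom adjusted p = 0.0114), whereas TIMP2 lay at 0.80 there and did not pass. The cross-linking enzyme gene loxl2b rose from 5.37 ± 0.892 to 13.8 ± 3.51 FPKM, lost its call with 1 library left out (limma-voom adjusted p up to 0.0882) and lay at -0.18 under TMM. The procollagen protease gene adamts3 had 2.95 ± 0.607 and 1.36 ± 0.357 FPKM and did not pass (limma-voom adjusted p = 0.118, and up to 0.809 with 1 library left out). It passed only under the downward shift of TMM (limma-voom adjusted p = 0.00151), and that pass alone does not show a fall. The highest heat stress library of adamts3, at 1.67 FPKM, lay below its lowest control library, at 2.26 FPKM, in a gene selected on this difference.

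**Figure D4:**
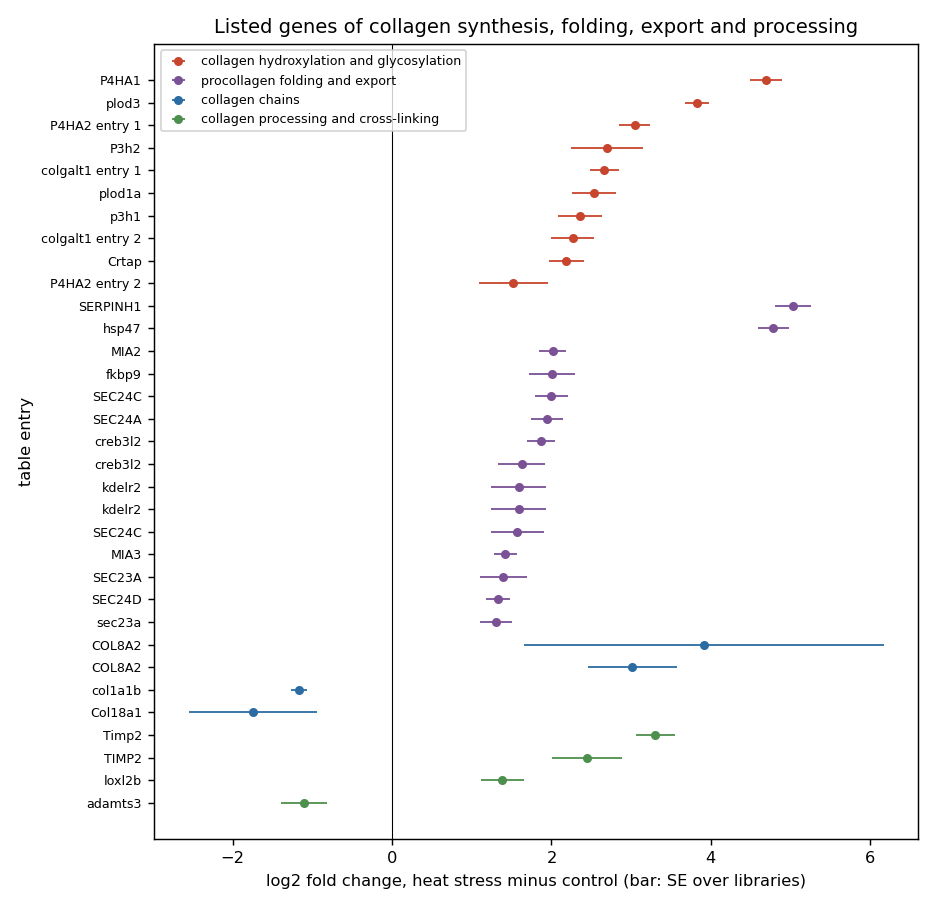
Log2 fold change, heat stress minus control, of the 10 entries and of 23 other listed genes of collagen folding and export, collagen chains and extracellular processing, with bars for the SE over libraries. The 10 entries and all 15 folding and export entries lie above 0 by recovered depth, whereas col1a1b, Col18a1 and adamts3 lie below.

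Of 17 markers of stellate cells and fibroblasts, only col1a1b was listed by symbol, with a level of 57.4 to 70.4 FPKM in control and 26.9 to 30.0 FPKM in heat stress. No entry matched the 11 endothelial, 12 macrophage and leukocyte or 9 erythrocyte markers, which says only that no such symbol was in the table. Hepatocyte markers had 7 listed entries, among them the abundant plasma protein genes alb1 and apoa-i-1 and an identical pair, fga and FGA. The summed level of the 7, with both entries of the pair counted, was 28356 to 29531 FPKM in control and 10032 to 16131 FPKM in heat stress. Of these 7 entries 2 rose and 5 fell by limma-voom, beside 71.3% and 16.2% of all listed genes in the fit. The 2 that rose were the identical pair fga and FGA. The RBP4 entry among the 5 has the description "purpurin" and rests on 59 control and 7 heat stress footprints. Its symbol may not name a hepatocyte marker. Of the 5 lower calls, 4 were lost with 1 library left out, among them alb1 and apoa-i-1 (limma-voom adjusted p up to 0.177 and 0.0932). The call of the more abundant rbp4 entry, which fell from 8598 to 3070 FPKM, held with every library left out in turn. Under TMM over the listed genes all 5 lower calls held, and fga and FGA lay at -0.10, not past the test. TMM moved the median log2 fold change of all listed genes from 1.695 to 0.137. Lower calls could hardly be lost there, so their holding is no check on them. The part of cell makeup in the levels of the collagen enzymes was not tested.

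The listed genes whose profile lay closest to that of the 10 entries were sdf2l, DNAJC3, hyou1, uri1 and Padi2. Likeness was the root mean square difference over 6 libraries between a gene's log2 values, each minus its control mean, and the median profile of the 10 entries, among 876 listed genes with a symbol and at least the lowest member's mean level. It was 0.0743 for sdf2l, 0.0910 for DNAJC3, 0.115 for hyou1, 0.148 for uri1 and 0.181 for Padi2. The entries themselves ranged from 0.104 for colgalt1 entry 1 to 1.50 for P4HA1. The gene sdf2l went from 11.0 ± 2.06 to 69.5 ± 7.97 FPKM, and DNAJC3, an ER co-chaperone gene, from 4.03 ± 0.465 to 23.1 ± 3.43 FPKM. The hyou1 entry near the profile was the less abundant of 2, with a log2 fold change of 2.68, beside 3.85 in the other. The related entries dnajc3a, dnajc3b and sdf2l1 had log2 fold changes of 4.84, 1.80 and 3.30, so the likeness holds for single entries.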

How the data were processed

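Per the labels' protocols, a small RNA kit was used for the footprint libraries, whose molecule label reads nuclear RNA. The submitters' processing notes name Bowtie2 and edgeR without role or version. For the genome build, annotation and counter: not given in the sources used here. Per the file headers, the authors deposited for each gene whole-number footprint counts and FPKM by library, besides group means and their own log2 fold change, p-value and FDR. Cells hold 8 characters and touch each other, which cuts identifiers and descriptions, so columns were read by position without a unit check and no coordinates are given. A further 411 overflow lines, which do not begin with a gene identifier, were not used. The 1213 listed genes, and all shares and ranks over them, are those of the lines that were read.

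Library depth was the median ratio of count to FPKM in the 94 genes that had 200 footprints and 10 FPKM or more in every library. The fit across listed genes was limma-voom (limma 3.58.1, R 4.3.3) on these depths, two-sided, without TMM, for the 1152 of 1213 genes with at least 10 scaled footprints in 3 libraries and 15 in all. Adjusted p-values are Benjamini-Hochberg over about 29300 genes, the number that the authors' FDR, p-value and rank imply. The fit was tested on simulated counts with known depths and 200 changed genes, as many raised as lowered. That test does not cover the scaling between libraries or the selection of the listed genes. Replicates differed by more than sampling noise in all 6 pairs (chi-square over degrees of freedom 13.7 to 32.6).

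The members and gene lists were chosen with earlier results of these data known. Named genes were all members, entries of 3 collagen lists, the most abundant of the others and 5 nearest profiles. Called entries of the collagen lists were counted without the members, which get no test. Promoters and proteins were not analysed here.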

Additional observations from a re-analysis of the deposited data

How the results depend on the processing

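The table holds genes selected on these libraries, so fold changes tend to be overestimates and the count of 1008 of 1152 listed genes called describes the selection. TMM factors over the listed genes gave 354 genes called (88 higher, 266 lower), a median log2 fold change of 1.0527 over the 10 entries, and 6 of 22 tested entries of the collagen lists called in place of 20, the members left out. Median-of-ratios factors gave 354 (88 higher, 266 lower), 1.0678 and 6, and summed listed footprints 469 (207 higher, 262 lower), 1.678 and 9. These scalings take listed genes, or their sum, as unchanged. Each moved the median of all listed genes down, which favours lower calls. P4HA2 entry 2 was at -0.0539 under TMM and -0.0347 under median of ratios. With at least 10 FPKM in 3 libraries, 556 genes and 12 entries were called, since fewer were tested. On log2(FPKM + 1) the entries' median was 2.1298, because the pseudocount shrinks low levels.

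With each library left out in turn, 564 to 972 genes were called, the entries' median was 2.4703 to 2.7687, and 13 to 18 entries of the collagen lists were called. The 564 and 13 calls came without control replicate 1, and 660 and 624 without control replicate 3 and heat stress replicate 3. Deviations from the group means were nearly uncorrelated between same-numbered libraries (-0.0587, -0.0379 and 0.00161 for numbers 1, 2 and 3). This does not settle if the libraries were prepared in pairs, which the labels leave unsaid. With the replicate block 1102 genes and 21 collagen entries were called. The entries' median listed for that setting, 2.6309, is a difference of mean log2 values without a block term. Its distance from the main value of 2.5999 is therefore no effect of the block. Of 137 values of single entries under the alternatives, 103 stayed within 1 SD, 32 moved further with the same sign and 2 turned. The SD is that of an entry's log2 values within groups, pooled over both groups. The 103 include the values under the changed filters, which alter the tested set and leave each value as it was. They also include all values with 1 library left out, which can hardly move a group mean by that SD. The values listed for the replicate block, which carry no block term, are among them too. The count of 103 is therefore no check on stability. Under TMM, median-of-ratios and summed-footprint scaling, no entry stayed within 1 SD. Low control counts limit P4HA1, P3h2 and colgalt1 entry 2.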

Other observations

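Disulfide formation in the ER was represented by 9 listed entries, all of which rose by limma-voom, 7 of them also without any 1 library, beside 71.3% called as higher among all tested genes. Under TMM over the listed genes 1 of the 9 calls remained, that of the more abundant PDIA6 entry (limma-voom adjusted p = 0.015), and 3 entries lay below 0, none past the test. PDIA6, a protein disulfide isomerase, rose from 202 ± 24.5 to 1439 ± 125 FPKM in its more abundant entry, and PDIA4, of the same family, from 240.3 ± 11.9 to 1204 ± 179 FPKM in its more abundant entry (limma-voom adjusted p = 0.29 under TMM). Other oxygenases that use 2-oxoglutarate had 3 listed entries. ASPH, the symbol of an enzyme that hydroxylates aspartate and asparagine, rose from 9.13 ± 2.19 to 48.9 ± 7.81 FPKM (limma-voom adjusted p = 0.158 under TMM). Its description is cut to "probable", so the entry is known by its symbol only. The oxygen sensor gene egln1 rose from 7.19 ± 0.546 to 17.2 ± 4.24 FPKM, lost its call with 1 library left out (limma-voom adjusted p up to 0.171) and lay at -0.32 under TMM. Kdm6b, a histone demethylase gene, had 1.55 ± 0.280 and 0.677 ± 0.0666 FPKM and did not pass (limma-voom adjusted p = 0.111, and up to 0.481 with 1 library left out). It passed only under the downward shift of TMM (limma-voom adjusted p = 0.000803), and that pass alone does not show a fall. The highest heat stress library of Kdm6b, at 0.72 FPKM, lay below its lowest control library, at 1.27 FPKM, in a gene selected on this difference.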
